A study of Mus musculus with 6 samples.

Results

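The genes described here are 39 transcription factor and cofactor genes of heart chamber, valve and conduction development, taken by name from a written list. They are 39 of the 54356 genes that had a transcript in the deposited files, and all 39 passed the filter for low counts that left 16048 genes to test. RNA was sequenced from whole hearts of C57BL/6 mouse embryos at E9.5, with 3 libraries from littermate controls and 3 from FlncgKO embryos, in which Flnc, the gene of the actin crosslinker filamin C, was deleted through Sox2Cre. This Cre acts in the epiblast, so the deletion reaches the embryo as a whole and is not limited to cardiomyocytes. The controls are described only as control, and whether they carried a Cre or a deleted Flnc allele is not given. The labels name whole hearts while the study's Methods name hearts or isolated ventricles, and the number of hearts in a library is not given. The p-values below therefore measure only the spread between these libraries, which may be technical.

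Cardiac transcription factors work in combinations. GATA factors, Nkx2-5, T-box factors, MEF2 factors and serum response factor bind near each other at the genes of contractile proteins, and cofactors such as myocardin add to their activity. As the looped heart tube forms chambers, Irx and Hey2 factors mark the ventricles and Nr2f factors mark the atria. Tbx2, Tbx3 and Msx2 mark the atrioventricular canal, the slow-conducting ring between the chambers, and Id2 is grouped with them here. Foxc and Msx factors act in the mesenchyme of the outflow tract and cushions.

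Libraries held 19208859 to 23123255 estimated counts. Levels are given as CPM, counts relative to library size after the TMM correction for RNA composition, and as TPM where genes are compared with each other, since TPM is per transcript length. Flnc had 623 to 844 CPM in the controls and 111 to 240 CPM in FlncgKO hearts. Its log2 fold change was -2.21 (edgeR adjusted p = 0.0656, DESeq2 adjusted p = 9.99e-07). Without 1 library the adjusted p ranged from 0.00110 to 0.238 with edgeR and reached at most 0.000995 with DESeq2. With all libraries edgeR, the main test here, thus did not call the deleted gene itself, while DESeq2 did. The 10 cardiomyocyte markers summed to 31523 to 34602 CPM in the controls and 26111 to 31795 CPM in FlncgKO libraries, lowest in FlncgKO replicate 3, and 9 of the 10 had negative log2 fold changes. Their part in the differences below was not tested. Ventricular and atrial markers were both present apart from Sln, which was under 1 CPM in every library, and all 6 skeletal muscle markers lay under 1 CPM. The 8 platelet markers summed to 18.8 to 28.0 CPM in the controls and 102 to 650 CPM in FlncgKO libraries, and the 8 erythroid markers to 2856 to 8172 and 6994 to 11244 CPM. Y-linked genes summed to 117 to 140 CPM in the controls, 80.7 CPM in FlncgKO replicate 1, and 3.88 and 4.28 CPM in FlncgKO replicates 2 and 3. Fits below with this Y-linked level as a covariate therefore lean on FlncgKO replicate 1 for the group difference. FlncgKO replicate 3 also had the most epithelial RNA, with 517 CPM over 8 markers against 129 to 325 CPM in the other 5 libraries.

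All 39 genes were present in FlncgKO hearts, and most differences were small. Their summed level was 3880 to 4219 CPM in the controls and 3473 to 3825 CPM in FlncgKO hearts, so these ranges did not meet. With a threshold of 0.05 on the adjusted p of edgeR's quasi-likelihood test, 0 of the 39 genes were higher and 1, Id2, was lower, where 1.31% of all genes tested were called in total, 1.06% higher and 0.249% lower. DESeq2 called 2 higher and 5 lower, where 8.45% of 15950 genes were called in total, 6.19% higher and 2.26% lower. The higher genes were Irx1 and Foxc2, and the lower ones were Gata5, Tbx20, Smarcd3, Nr2f2 and Id2. Without FlncgKO replicate 3 edgeR called 2 of the 39 higher and 5 lower, beside 7.78% of all genes. Without control replicate 3 it again called Id2 alone, beside 0.668% of all genes. It called 0 without any other single library, beside 0.00601% to 0.231% of all genes. In these last fits 2 to 6 of the 39 were higher and 5 to 10 lower before adjustment at 0.05. Of the 16476 to 16630 genes tested there, 1557 to 1880 were higher and 828 to 1445 lower before adjustment. By the p of edgeR before adjustment, 3 of the 39 were under 0.05 and higher and 10 lower, where 22.2% of all genes were under it, 13.3% higher and 8.84% lower. In 12 genes the 3 FlncgKO libraries did not overlap the 3 control libraries, which is 30.8% of the 39 beside 29.7% of all genes. Of the 12, 3 were higher (15.7% of all genes) and 9 were lower (14.1% of all genes). Without FlncgKO replicate 1 the groups of 20 genes did not overlap, 51.3% of the 39 beside 40.6% of all genes. Log2 fold changes were negative in 24 and positive in 15 genes, with a median of -0.12, beside 48.4% negative and a median of 0.01 over all genes. In whole hearts, fewer cells of a type and less RNA per cell cannot be told apart.

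In TPM, the levels of the 39 genes spanned a range from 3.11 (Foxc1) to 339 (Id2) in control hearts. The highest levels in the controls belonged to Id2 at 339 ± 29.0 TPM (SD, n = 3), Nkx2-5 at 228 ± 33.9, Gata4 at 214 ± 11.1, Hopx at 199 ± 5.39, Tbx20 at 165 ± 9.14 and Smarcd3 at 150 ± 17.1 TPM. Nkx2-5 and Gata4 lay within their spread of each other, as did Gata4 and Hopx, and Tbx20 and Smarcd3. The lowest levels were 3.11 ± 0.217 TPM for Foxc1, 3.79 ± 0.586 TPM for Prdm16 and 5.49 ± 0.557 TPM for Prrx1. In FlncgKO hearts Nkx2-5 at 247 ± 37.9 TPM and Id2 at 239 ± 5.21 TPM took the first and second place and could not be told apart by their spread. The largest move in rank was that of Nr2f1, from place 24 in control to place 32 in FlncgKO hearts. In the other direction Irx1 moved from place 33 to place 26.

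**Figure D1:**
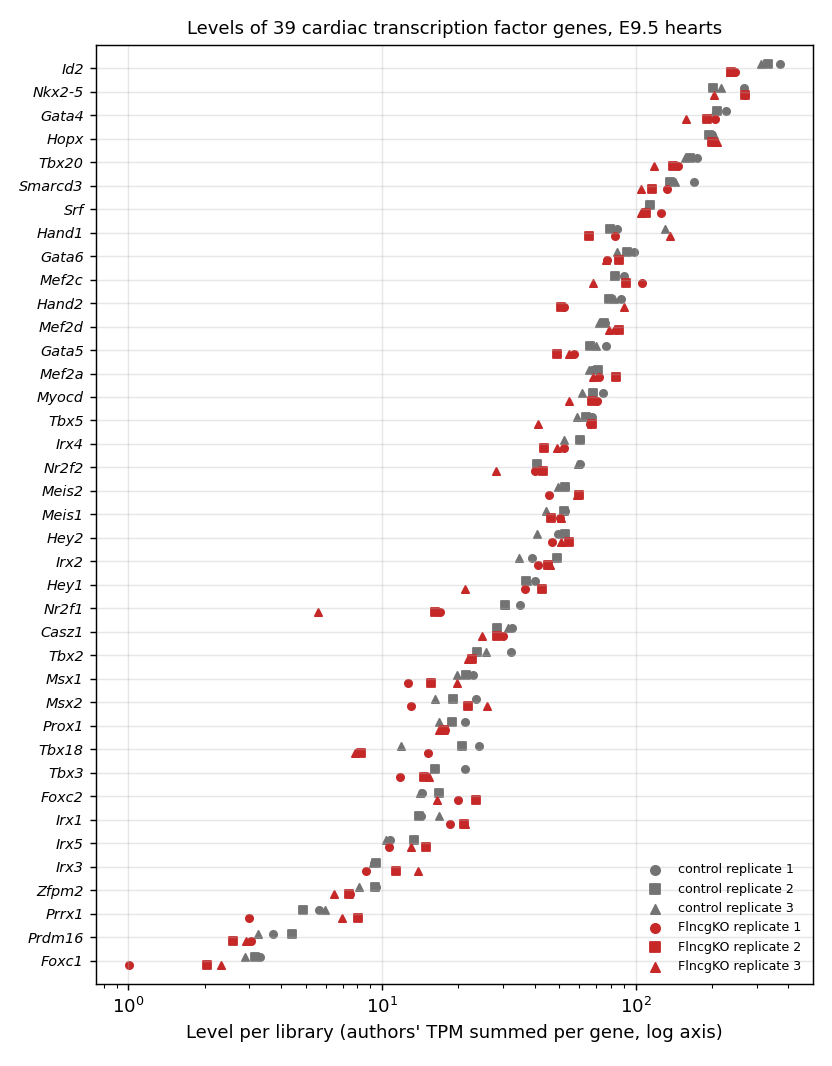
Level of each of the 39 genes in each library, as TPM on a logarithmic axis, ordered by the control mean (grey, control, red, FlncgKO, with circles, squares and triangles for replicates 1, 2 and 3). Id2 lies lower in all 3 FlncgKO libraries, and Nr2f1 lies lowest in FlncgKO replicate 3.

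The GATA factors bind the sequence that gives them their name and act in both myocardium and endocardium, and Zfpm2, also called Fog2, is a zinc finger cofactor that binds them. All 4 had negative log2 fold changes, and none passed edgeR's test. Gata5, a factor of the endocardium and early myocardium on chromosome 2 (180325133 to 180334699, GRCm38), had 151, 130 and 139 CPM in control hearts, in the order of replicates 1 to 3 that is kept below, and 114, 95.1 and 112 CPM in FlncgKO hearts. All 3 FlncgKO values lay below all 3 control values. The mean was 76.4% of control, and FlncgKO minus control was -0.39 on the log2 scale (SE, the standard error, 0.09, edgeR adjusted p = 0.0739, DESeq2 adjusted p = 0.00167). With DESeq2 it did not pass without control replicate 1 (adjusted p = 0.0606), and with edgeR it passed without FlncgKO replicate 3 (adjusted p = 0.0440). With the Y-linked covariate the log2 fold change was -0.27, and neither tool called it. The 10 markers of endothelium and endocardium summed to 943 to 1128 CPM in the controls and 1009 to 1229 CPM in FlncgKO hearts. EdgeR called 1 of them, Emcn, higher by 1.24 on the log2 scale (adjusted p = 0.0353, and 0.0215 to 0.191 without 1 library). Of the 10 markers, 6 had positive and 4 negative log2 fold changes, and DESeq2 called 3 higher and 2 lower. Their part in the Gata5 difference was not tested.

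Zfpm2 had 26.2, 26.9 and 23.7 CPM in control and 21.6, 21.0 and 19.1 CPM in FlncgKO hearts. Its groups did not overlap either, and the log2 fold change was -0.31 (SE 0.09, edgeR adjusted p = 0.0976, DESeq2 adjusted p = 0.0769). Gata4, the GATA factor with the highest level here and a partner of Tbx5 and Nkx2-5, had 347, 314 and 304 CPM in control and 311, 290 and 258 CPM in FlncgKO hearts. The highest FlncgKO value lay between the controls, and the log2 fold change was -0.17 (SE 0.08, edgeR adjusted p = 0.278). It was -0.03 with the Y-linked covariate. Gata6, which shares early heart roles with Gata4, had a log2 fold change of -0.13 (edgeR adjusted p = 0.347), and it shares exon bases with a gene on the other strand, 1010001N08Rik, at 58.4 TPM against its own 85.9 TPM.

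The homeobox and T-box genes of the core program did not move together. Tbx20, which is needed for chamber growth and restrains Tbx2 in the chambers, lies on chromosome 9 (24718138 to 24774303) and had 710, 712 and 681 CPM in control and 620, 604 and 508 CPM in FlncgKO hearts. The groups did not overlap, and FlncgKO replicate 3 was the lowest library. On the log2 scale FlncgKO minus control was -0.28 (SE 0.08, edgeR adjusted p = 0.101, DESeq2 adjusted p = 0.0131). With DESeq2 it did not pass without control replicate 1 or control replicate 2 (adjusted p = 0.149 and 0.156). With the Y-linked covariate the log2 fold change was -0.16, and neither tool called it.

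Nkx2-5, the homeobox factor that marks early heart cells, had 165, 105 and 116 CPM in control and 167, 160 and 132 CPM in FlncgKO hearts. Control replicate 1 stood with the FlncgKO libraries, so the groups overlapped, and the log2 fold change was 0.25 (SE 0.19, edgeR adjusted p = 0.497). Without control replicate 1 the log2 fold change was 0.46, and DESeq2 then gave an adjusted p of 0.0174. Tbx5, a factor of the atria, left ventricle and conduction system, had 134, 133 and 122 CPM in control and 134, 131 and 87.7 CPM in FlncgKO hearts. Its log2 fold change of -0.14 rested on FlncgKO replicate 3, and without that library it was 0.03. Hopx, a homeodomain protein that does not bind DNA itself, and Meis1 and Meis2, homeobox partners of Hox and Pbx proteins, had log2 fold changes of 0.04, -0.04 and 0.09.

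Among the MADS box factors and their coactivators, Mef2d was the gene with higher values in each FlncgKO library and Smarcd3 the gene with lower ones. Smarcd3, also called Baf60c, is the subunit that ties the BAF chromatin remodeling complex to heart factors, and it had 153, 127 and 130 CPM in control and 122, 103 and 98.1 CPM in FlncgKO hearts. The highest FlncgKO library lay just below the lowest control. This gave a log2 fold change of -0.34 (SE 0.10, edgeR adjusted p = 0.120, DESeq2 adjusted p = 0.0278). With DESeq2, Smarcd3 passed in none of the fits without 1 library except that without FlncgKO replicate 1, and its adjusted p ranged from 0.00199 to 0.288.

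Mef2d, a MEF2 factor of muscle and other tissues, had 167, 177 and 163 CPM in control and 196, 205 and 177 CPM in FlncgKO hearts, where the lowest FlncgKO library lay just above the highest control. The log2 fold change was 0.19 (SE 0.07, edgeR adjusted p = 0.158), and without FlncgKO replicate 3 it was 0.24 with an adjusted p of 0.0426. Mef2c, the MEF2 factor of the early heart tube, had 222, 215 and 216 CPM in control and 266, 230 and 168 CPM in FlncgKO hearts. Its FlncgKO libraries lay on both sides of tightly grouped controls, and the log2 fold change of 0.03 turned to -0.01 with scaling by total counts. Mef2a, Srf, the serum response factor, and Myocd, the gene of its coactivator myocardin, had log2 fold changes of 0.12, 0.05 and -0.12 with overlapping groups.

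The 3 other core genes all had negative log2 fold changes and overlapping groups. Hand2, a bHLH factor of the right ventricle, outflow tract and cushions, had 94.5, 80.4 and 85.0 CPM in control but 57.3, 54.3 and 101 CPM in FlncgKO hearts. FlncgKO replicates 1 and 2 lay below all controls and FlncgKO replicate 3 above them. On the log2 scale FlncgKO minus control was -0.29 (SE 0.26, edgeR adjusted p = 0.577), and without FlncgKO replicate 3 it was -0.64 with an adjusted p of 0.00497. Hand2 shares exon bases with the antisense transcript gene Hand2os1, which had 176 TPM against 73.5 TPM for Hand2, and the strand setting of the quantification is not given in the sources used here. Casz1 and Prox1, zinc finger and homeobox factors of cardiac muscle growth, had log2 fold changes of -0.11 and -0.12. Prox1 had 90.1, 82.9 and 75.2 CPM in control against 77.2, 77.3 and 73.5 CPM in FlncgKO hearts (SE 0.07, edgeR adjusted p = 0.375).

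**Figure D2:**
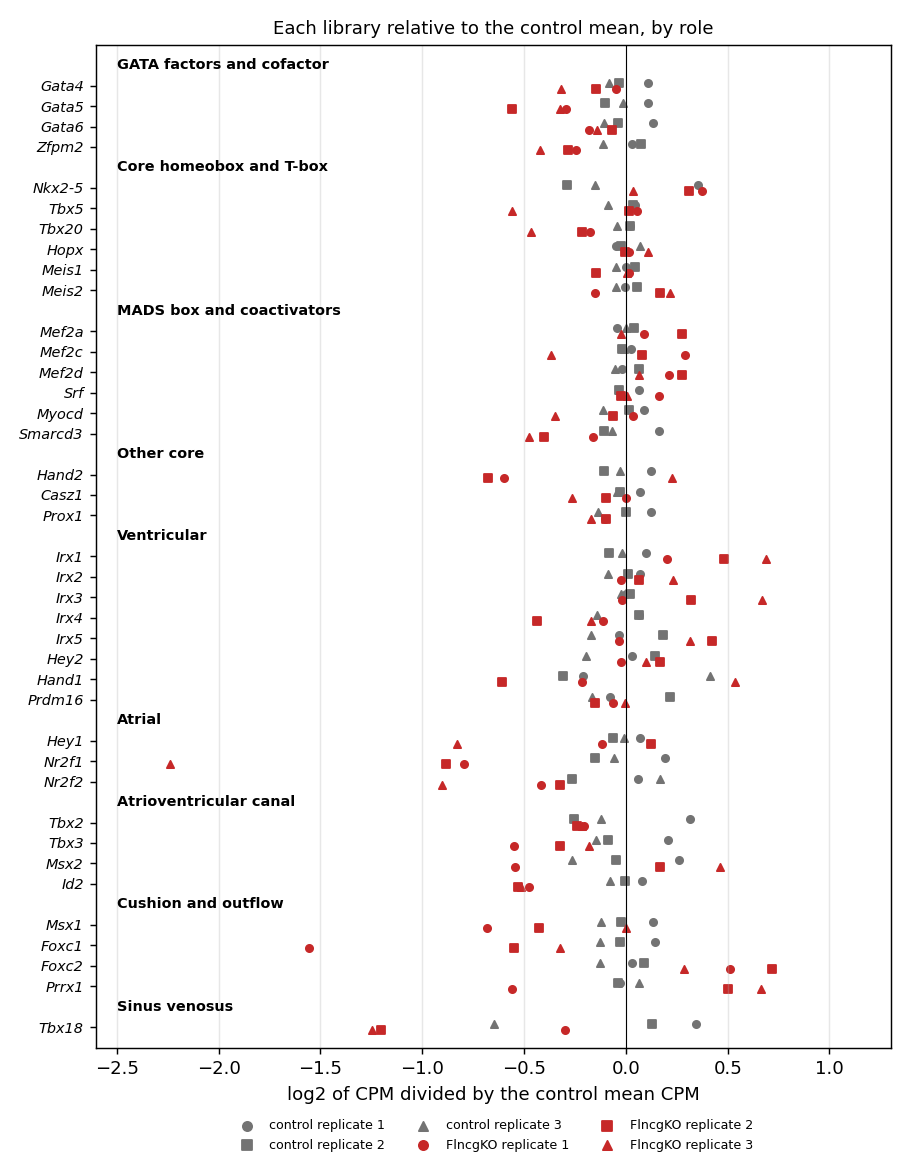
CPM of each of the 39 genes in each library on a log2 scale relative to the mean of the 3 control libraries, grouped by role (grey, control, red, FlncgKO, with circles, squares and triangles for replicates 1, 2 and 3). The atrial genes Nr2f1 and Nr2f2, and Id2 of the canal set, lie left of the controls in all 3 FlncgKO libraries. Irx1 and Foxc2 lie right of the controls.

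Ventricular factors were split. Of the 8 genes, 5 had positive and 3 negative log2 fold changes, and 0 passed edgeR's test. Irx1, an Iroquois homeobox factor of the ventricular septum on chromosome 13 (71957921 to 71963723), had 17.4, 15.3 and 16.04 CPM in control and 18.7, 22.7 and 26.2 CPM in FlncgKO hearts. All FlncgKO libraries lay above the controls, FlncgKO replicate 3 farthest. This gave a log2 fold change of 0.47 (SE 0.13, edgeR adjusted p = 0.0978, DESeq2 adjusted p = 0.0448), and with the Y-linked genes as a covariate it was 0.15. In DESeq2's fits without 1 library Irx1 passed in none except that without FlncgKO replicate 1, and its adjusted p ranged from 0.00397 to 0.260.

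Irx4, the Iroquois factor that holds the ventricular myosin program, went the other way, with 94.3, 94.3 and 81.6 CPM in control and 83.2, 66.5 and 79.9 CPM in FlncgKO hearts. The groups overlapped, and the log2 fold change was -0.24 (SE 0.10, edgeR adjusted p = 0.219). Irx1 minus Irx4 on the log2 CPM scale was -2.34 to -2.61 in the controls and -1.55 to -2.15 in FlncgKO hearts, so these ranges did not meet. It was 1 of 6 pairs of genes compared after their values were seen, and in 3 of these the groups overlapped. The exact two-sided permutation p was 0.1, the smallest that 3 against 3 libraries allow, or 0.2 adjusted over the 6 pairs. The other Iroquois factors Irx2, Irx3 and Irx5 had log2 fold changes of 0.09, 0.35 and 0.25. Each was negative with the Y-linked covariate (-0.05, -0.09 and -0.08), a fit that leans on FlncgKO replicate 1.

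Hand1, the bHLH factor of the left ventricle's outer curvature, had the highest level among the ventricular factors and the widest spread, with 85.5, 79.8 and 132 CPM in control and 85.3, 64.9 and 143 CPM in FlncgKO hearts. Replicate 3 was the highest library in both groups, and the log2 fold change was -0.02 (SE 0.37, edgeR adjusted p = 0.984). Hey2, the Notch target that represses atrial genes in the ventricle, and Prdm16, a zinc finger factor of compact myocardium, had log2 fold changes of 0.08 and -0.07 with overlapping groups. The 6 markers of the ventricular chamber summed to 7875 to 10326 CPM in the controls and 10237 to 11274 CPM in FlncgKO hearts. Of these markers 5 had positive log2 fold changes and 1 a negative one, and edgeR called 0. Their part in the differences of the ventricular factors was not tested.

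Of the 3 atrial factors edgeR called 0, with 2 lower below 0.05 before adjustment, and DESeq2 called 1 lower. Over all genes, 8.84% were lower below 0.05 before adjustment with edgeR, and DESeq2 called 2.26% lower. The median over the 3 genes was -0.52 on the log2 scale, and their summed level was 129 to 155 CPM in the controls against 67.4 to 120 CPM in FlncgKO hearts. Nr2f1, the orphan nuclear receptor COUP-TFI of atrial muscle, lies on chromosome 13 (78188973 to 78199757) and had 40.4, 31.9 and 34.0 CPM in control against 20.4, 19.2 and 7.51 CPM in FlncgKO hearts. Each FlncgKO library lay below each control, with FlncgKO replicate 3 far below the other FlncgKO libraries. The mean was 44.5% of control, with a log2 fold change of -1.17 (SE 0.39, edgeR adjusted p = 0.174, DESeq2 adjusted p = 0.0740). Without FlncgKO replicate 3 the log2 fold change was -0.84 (edgeR adjusted p = 0.00516, DESeq2 adjusted p = 4.21e-07), and without FlncgKO replicate 1 DESeq2 gave an adjusted p of 0.00257. One transcript, Nr2f1-201, made up 79.3% to 92.8% of the gene's TPM over the 6 libraries.

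Nr2f2, or COUP-TFII, which sets atrial identity and is also made in venous endothelium, had 67.4, 53.8 and 72.6 CPM in control and 48.3, 51.7 and 34.6 CPM in FlncgKO hearts. The groups did not overlap, although FlncgKO replicate 2 came close to control replicate 2. The log2 fold change was -0.52 (SE 0.18, edgeR adjusted p = 0.172, DESeq2 adjusted p = 0.0233). In DESeq2's fits without 1 library it passed without control replicate 2 and without FlncgKO replicate 2, and its adjusted p ranged from 0.0206 to 0.229. Hey1, a Notch target of the atrium, had 47.2, 42.9 and 44.6 CPM in control and 41.4, 48.8 and 25.3 CPM in FlncgKO hearts, with FlncgKO replicate 2 above all controls, and its log2 fold change of -0.22 (edgeR adjusted p = 0.644) was 0.01 without FlncgKO replicate 3.

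Other markers of the atrial chamber and inflow were read beside these genes. Of 7 listed, 6 were tested, and all 6 had negative log2 fold changes (median -0.67). The groups of 5 did not overlap, all lower in FlncgKO hearts, beside 14.1% of all genes. DESeq2 called 2, both lower, beside 2.26% of all genes called lower, and edgeR called 0. The 7 markers summed to 309 to 335 CPM in the controls and to 163 to 263 CPM in FlncgKO hearts, with FlncgKO replicate 3 lowest. In that library Shox2, a homeobox factor of the sinus node and inflow, had 0.730 CPM against 9.84 and 11.8 CPM in the other FlncgKO libraries and 15.6 to 20.4 CPM in the controls. Their part in the difference of Nr2f1 and Nr2f2, and that of the share of atrial tissue in a library, was not tested.

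**Figure D3:**
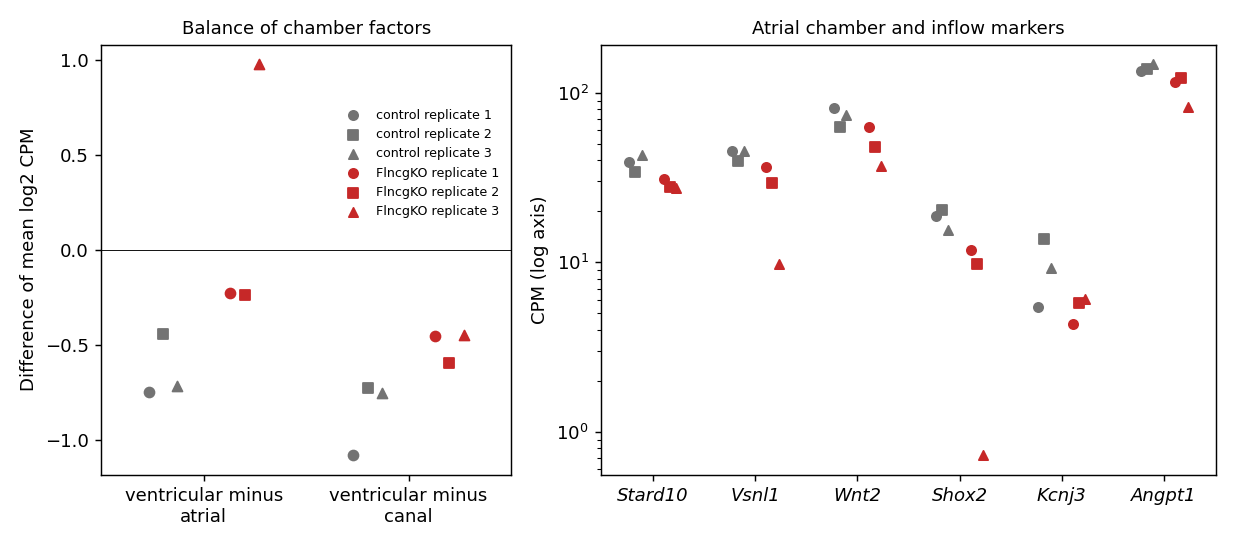
Left, mean log2 CPM of the 8 ventricular factors minus that of the 3 atrial or the 4 canal factors in each library. Right, CPM of the 6 tested markers of the atrial chamber and inflow on a logarithmic axis (control grey, FlncgKO red, circles, squares and triangles for replicates 1, 2 and 3), where FlncgKO replicate 3 stands highest for ventricular minus atrial at 0.98 and lowest for Shox2 at 0.730 CPM.

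The balance of ventricular against atrial factors was higher in each FlncgKO library than in each control. As the mean log2 CPM of the 8 ventricular minus the 3 atrial factors, it was -0.75, -0.44 and -0.72 in control replicates 1, 2 and 3 and -0.23, -0.24 and 0.98 in FlncgKO replicates 1, 2 and 3. The groups differed by 0.80, and by 0.40 without FlncgKO replicate 3. The median log2 fold change was 0.09 over the ventricular and -0.52 over the atrial factors. The difference thus lay mainly on the atrial side and largely restates the values of Nr2f1 and Nr2f2. Ventricular minus canal factors gave -1.08, -0.73 and -0.75 in control and -0.45, -0.59 and -0.45 in FlncgKO hearts, a difference of 0.36, and 0.24 to 0.42 when 1 library was left out. Both were left as descriptions without a test. Medians over the genes in place of means gave differences of 0.51 and 0.51. For ventricular minus atrial factors, FlncgKO replicates 1, 2 and 3 were then at -0.83, -0.89 and 0.25. Control replicates 1, 2 and 3 were at -1.02, -0.90 and -1.08. With Irx4, Hey2 and Hand1 alone as the ventricular factors the differences were 0.63 and 0.18, and FlncgKO replicate 2 then lay among the controls in both, so the groups overlapped.

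In the atrioventricular canal set, Id2 fell. Control hearts had 339 TPM of Id2 against 27.2 of Tbx2, 17.8 of Tbx3 and 19.6 of Msx2. Which cells of the heart held the Id2 RNA was not tested. Id2 encodes an HLH protein without a DNA-binding region that holds bHLH factors inactive, and it is a target of BMP signaling and a gene of the canal and conduction system. It lies on chromosome 12 (25093799 to 25097140, minus strand) and had 196, 186 and 176 CPM in control and 134, 129 and 130 CPM in FlncgKO hearts. All 3 FlncgKO libraries lay well below the lowest control and within 5 CPM of each other. The mean went from 186 ± 10.3 to 131 ± 2.64 CPM (SD, n = 3 in each group), which is 70.4% of control. On the log2 scale FlncgKO minus control was -0.51 (SE 0.06, edgeR adjusted p = 0.0310, DESeq2 adjusted p = 2.34e-11). One transcript, Id2-201, made up 93.2% to 95.6% of its TPM in the 6 libraries.

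The size of the Id2 change moved little when a library was left out, from -0.47 to -0.55, but its side of the threshold changed. With edgeR it did not pass without control replicate 1 (adjusted p = 0.197), control replicate 2 (0.191), FlncgKO replicate 1 (0.0519) or FlncgKO replicate 2 (0.0527), and it had an adjusted p of 0.0342 without control replicate 3 and 0.00405 without FlncgKO replicate 3. With DESeq2 it passed in all 6 of these fits, with adjusted p from 1.14e-11 to 2.88e-07. Over all genes, edgeR called 0.00605%, 0.00601% and 0.668% without control replicates 1, 2 and 3, and 0.206%, 0.231% and 7.78% without FlncgKO replicates 1, 2 and 3. DESeq2 called 4.23%, 4.15% and 7.82% without the same controls, and 7.2%, 4.24% and 11.5% without the same FlncgKO libraries. With the Y-linked genes as a covariate the log2 fold change was -0.47, with an adjusted p of 0.221 from edgeR and 0.00517 from DESeq2.

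The 250 bases before the RefSeq start of Id2 are shown because it was the gene past the threshold, and those of Gata5 because it had the next smallest p among the 39. Both are on the minus strand of GRCm38.p6, at chr12:25096093-25096342 and chr2:180334680-180334929, 0 and 20 bases from the nearest GENCODE transcript start, and are written 5′ to 3′. Capitals mark E-boxes, CANNTG, the site of bHLH factors, and GGCGCC, a motif of BMP-responsive SMAD proteins.
Id2: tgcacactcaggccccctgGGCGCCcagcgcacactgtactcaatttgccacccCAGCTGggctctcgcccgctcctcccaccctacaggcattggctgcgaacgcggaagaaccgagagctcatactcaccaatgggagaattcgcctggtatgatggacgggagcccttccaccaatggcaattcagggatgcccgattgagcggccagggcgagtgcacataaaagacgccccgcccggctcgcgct
Gata5: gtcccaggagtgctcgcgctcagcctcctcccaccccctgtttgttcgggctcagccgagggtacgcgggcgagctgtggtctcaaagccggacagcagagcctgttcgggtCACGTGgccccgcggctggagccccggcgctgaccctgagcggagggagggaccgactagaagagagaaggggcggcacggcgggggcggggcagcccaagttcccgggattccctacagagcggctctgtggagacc

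RefSeq windows were matched for 27 of the 39 genes. On both strands, 15 of the 27 held CANNTG against 66.1% of 27018 promoters, and 5 held GGCGCC against 9.54%. The GATA letters AGATAA stood in 1 window against 10.3% of promoters, the T-box letters AGGTGT in 0 against 12.0%, and the NKX letters AAGTG, which can overlap CANNTG, in 12 against 40.8%. The MEF2 site stood in 0 windows against 3.23% of promoters, the nuclear receptor letters AGGTCA in 1 against 13.8%, the TEAD letters GGAATG in 4 against 12.6%, and the CArG box of serum response factor in 1, that of Srf itself, against 1.40%. The median GC content was 62.4% in the windows of these genes and 52.0% in all promoters.

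The other canal genes had smaller differences. Tbx3, a T-box repressor that keeps canal and conduction cells from chamber differentiation, had 55.9, 45.6 and 43.7 CPM in control and 33.1, 38.7 and 42.7 CPM in FlncgKO hearts. FlncgKO replicate 3 lay just under the lowest control. This gave a log2 fold change of -0.34 (SE 0.12, edgeR adjusted p = 0.172, DESeq2 adjusted p = 0.0918), and without FlncgKO replicate 3 DESeq2 gave an adjusted p of 0.0279. Tbx3 shares exon bases with Tbx3os1 on the other strand, at 3.29 TPM against 15.9 TPM.

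Tbx2, the T-box repressor of canal myocardium, had 40.8, 39.8 and 40.5 CPM in FlncgKO hearts and 58.6, 39.4 and 43.2 CPM in control, where control replicate 1 stood apart. Its log2 fold change was -0.22, and it was -0.03 without that library. Msx2, a homeobox factor of canal and outflow tract and a BMP target, had a log2 fold change of 0.08, and this turned to -0.15 without FlncgKO replicate 3 and -0.67 with the Y-linked covariate.

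**Figure D4:**
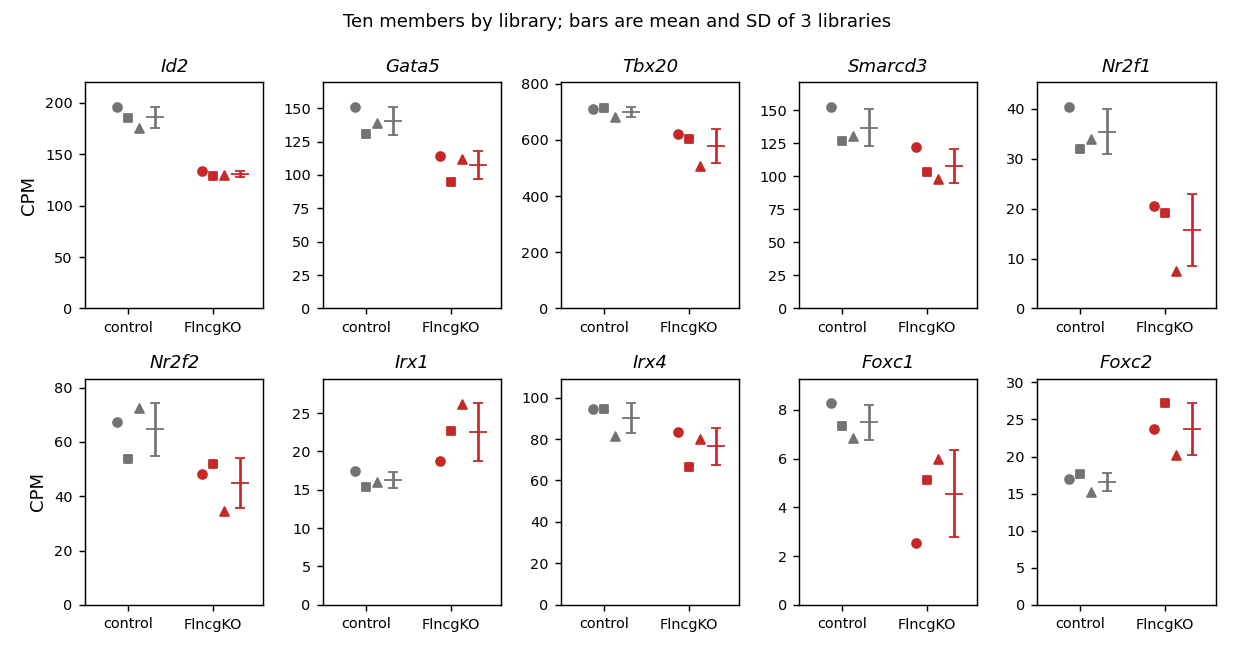
CPM in each library of 10 of the genes, chosen after their values were seen, on axes that start at 0, with control grey, FlncgKO red, circles, squares and triangles for replicates 1, 2 and 3, and a mark and bar for the mean and SD of 3 libraries. Id2 lies at 129 to 134 CPM in FlncgKO against 176 to 196 CPM in control hearts, and Foxc1 and Foxc2 lie on opposite sides of their controls.

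In the cushion and outflow set the paralogs Foxc1 and Foxc2, forkhead factors that act together in the outflow tract and the vessels of the pharyngeal arches, differed in opposite directions. Foxc2, on chromosome 8 (121116171 to 121118895), had 16.9, 17.6 and 15.2 CPM in control and 23.7, 27.2 and 20.2 CPM in FlncgKO hearts. Each FlncgKO library was above each control. The log2 fold change was 0.52 (SE 0.12, edgeR adjusted p = 0.0778, DESeq2 adjusted p = 0.0154). Without FlncgKO replicate 3 it was 0.62 (edgeR adjusted p = 0.0128), and in DESeq2's fits without any other single library it did not pass, with adjusted p from 0.0606 to 0.164.

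Foxc1, on chromosome 13 (31806633 to 31812476), had 8.28, 7.34 and 6.86 CPM in control and 2.55, 5.12 and 6.00 CPM in FlncgKO hearts. It was below the controls in each FlncgKO library, most in FlncgKO replicate 1, at 57 to 181 counts per library. On the log2 scale FlncgKO minus control was -0.72 (SE 0.30, edgeR adjusted p = 0.213, DESeq2 adjusted p = 0.148). DESeq2 gave an adjusted p of 0.0363 without FlncgKO replicate 3 and 0.00295 with the Y-linked covariate. The covariate fit leans on FlncgKO replicate 1, the lowest library for Foxc1. Foxc2 minus Foxc1 on the log2 CPM scale was 1.02 to 1.25 in control and 1.74 to 3.17 in FlncgKO hearts. Since each gene already separated the groups, in opposite directions, these ranges could not meet. The exact permutation p of 0.1, or 0.2 adjusted over the same 6 pairs, was thus fixed beforehand and adds no support.

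Msx1, a homeobox factor of cushion mesenchyme and neural crest, had 20.6, 18.4 and 17.2 CPM in control and 11.7, 13.9 and 18.7 CPM in FlncgKO hearts. FlncgKO replicate 3 lay among the controls and the other FlncgKO libraries below them. This gave a log2 fold change of -0.34 (SE 0.17, edgeR adjusted p = 0.293), and without FlncgKO replicate 3 it was -0.55 with an adjusted p of 0.0377. Prrx1, a homeobox factor of mesenchyme, had a log2 fold change of 0.29, which was -0.72 with the Y-linked covariate, and DESeq2 called it higher without FlncgKO replicate 1 (adjusted p = 0.00723). Tbx18, the T-box factor of the sinus venosus and proepicardium, had 57.4, 49.4 and 28.9 CPM in control and 36.7, 19.6 and 19.1 CPM in FlncgKO hearts, with control replicate 3 below FlncgKO replicate 1. Its log2 fold change was -0.85 (SE 0.39, edgeR adjusted p = 0.287), and DESeq2 called it without FlncgKO replicate 1 (adjusted p = 0.000528) and without control replicate 3 (adjusted p = 0.00397).

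Among 25 tested genes of other heart transcription factors, edgeR called 1 higher, which was Klf13, and 1 lower, and DESeq2 called 5 higher and 3 lower. Log2 fold changes were positive in 12 and negative in 13 of them. Over all genes, edgeR called 1.06% higher and 0.249% lower, and DESeq2 called 6.19% higher and 2.26% lower. Klf13, a zinc finger partner of Gata4, rose from 54.3, 49.9 and 54.2 CPM in control to 68.1, 76.8 and 67.2 CPM in FlncgKO hearts, a log2 fold change of 0.42 (edgeR adjusted p = 0.0411). All 3 FlncgKO libraries lay above all controls. In edgeR's fits without 1 library Klf13 passed in none except that without FlncgKO replicate 3, and its adjusted p ranged from 0.0138 to 0.216. With DESeq2 it passed in all 6 such fits.

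Downstream genes of these factors were followed in lists of their own. Over all genes, 13.3% were higher and 8.84% lower below 0.05 before adjustment with edgeR. DESeq2 called 6.19% of all genes higher and 2.26% lower. Of 31 tested chamber muscle genes that the core factors are known to activate, edgeR called 0, with 5 higher and 5 lower below 0.05 before adjustment, and DESeq2 called 3 higher and 2 lower. The higher ones were Nppb, Myh7 and Ankrd1, with log2 fold changes of 1.04, 0.35 and 0.67 and adjusted p of 0.121, 0.122 and 0.126 from edgeR. Myh6, the myosin heavy chain of atrial and early ventricular muscle, had 8593, 9165 and 8509 CPM in control and 7708, 6243 and 5510 CPM in FlncgKO hearts, with no overlap and a log2 fold change of -0.43 (edgeR adjusted p = 0.100). Tnni3, cardiac troponin I, had a log2 fold change of -0.27 (edgeR adjusted p = 0.115). Of 13 smooth muscle genes driven by serum response factor and myocardin, edgeR called 0, with 4 higher and 1 lower below 0.05 before adjustment, and DESeq2 called 2 higher. The smallest p belonged to Tagln, transgelin, at a log2 fold change of 0.28 (adjusted p = 0.0605), and Vcl, vinculin, at 0.36 (adjusted p = 0.108). Of 12 canal signals and their antagonists, edgeR called 0, with 1 higher and 2 lower below 0.05 before adjustment, and DESeq2 called 1 lower. Tgfb2, a cushion growth factor, had a log2 fold change of -0.30 (edgeR adjusted p = 0.0829), and Id3, a relative of Id2 and likewise a BMP target, had -0.26 (adjusted p = 0.168).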

How the data were processed

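The authors assigned reads from stranded polyA libraries to GENCODE M22 mouse transcripts (GRCm38.p6) with salmon, whose version is not given in the sources used here, and deposited estimated counts and TPM per transcript. The submitters' processing notes also name DESeq2 1.22.2. Here the deposited estimated counts were summed per gene through GENCODE M21 by transcript identifier without version and rounded. Transcripts without a gene there (0.37%, with 0.108% to 0.131% of counts) were left out. The authors' TPM values were summed per gene. Libraries held 19208859 to 23123255 counts, and 15624 to 16185 genes had at least 10.

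Groups were compared in R 4.3.3 with the robust quasi-likelihood test of edgeR 4.0.16 (TMM scaling, low counts removed by filterByExpr at 10, Benjamini-Hochberg adjustment over all genes tested, threshold 0.05), and with DESeq2 1.42.0, the authors' tool, as an alternative. The balances used log2 CPM with a prior count of 2. On simulated data for this contrast, log2 changes of 0.5, 1, 2 and 3 were placed in genes drawn at random from all 16048. EdgeR recovered 28%, 60%, 80% and 98% of them with 10 false calls, and DESeq2 34%, 68%, 84% and 98% with 37.

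Full values are given for genes past an adjusted p of 0.05 with either tool, genes whose groups do not overlap, and in each role the gene with the highest TPM and the one with the smallest p. From the pathway lists, genes called by edgeR are named, or the 2 with the smallest p where none was called. The gene called lower in these lists is not reported here. Marker lists are given by sums and counts. The 39 genes, their roles and the lists were chosen with earlier results of these data known. The alternatives were scaling by RLE or by totals alone, keeping low counts, length offsets from the deposited effective lengths, a replicate block, the level of Y-linked genes as a covariate, each library left out, and, for the balances, a prior count of 0.5, medians and fewer ventricular factors. DESeq2 with the covariate, with the block and without each library, and balances without each library, were added after seeing the data. Equal replicate numbers were not treated as pairs.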

Additional observations from a re-analysis of the deposited data

How the results depend on the processing

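Over all genes, edgeR called 170 higher and 40 lower genes. The counts were 392 and 162 with no filter, 63 and 13 with length offsets, 1 to 989 and 0 to 283 without 1 library, and 0 and 0 with the Y-linked covariate (906 and 391 at an unadjusted p under 0.05). DESeq2 called 987 and 360, and 520 to 1293 and 115 to 512 without 1 library. With the covariate it called 20 lower. Among the 39 genes edgeR called 0 higher and 1 lower, 1 and 2 with no filter, 0 to 2 and 0 to 5 without 1 library, and 0 and 0 with the covariate, where 1 and 6 had an unadjusted p under 0.05. DESeq2 called 2 and 5, 0 to 2 and 1 to 8 without 1 library, and 0 and 2 with the covariate, which were Id2 and Foxc1. Id2 was called by edgeR with RLE scaling, total counts only, no filter and length offsets. The number of genes without overlap, 12, was 14 to 20 without 1 library, or 35.9% to 51.3% of the 39 beside 35.8% to 44.5% of all genes. The cause of these shifts was not tested.

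Replicate numbers were not treated as pairs. Same-numbered libraries deviated from their group means with correlations of 0.04, 0.57 and 0.61, and control replicate 1 correlated best with FlncgKO replicate 2. With the replicate number as a block edgeR called 512 higher and 120 lower genes, of the 39 genes 1 higher (Foxc2) and 3 lower (Gata5, Smarcd3 and Id2), and DESeq2 called 837 and 186, of the 39 genes 1 and 6. Under the block the log2 fold change of Mef2c was -0.0075 with DESeq2.

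Of 819 member values under 21 alternatives, 52 in 17 genes had the opposite sign. With the Y-linked covariate the log2 fold changes from edgeR and DESeq2 were 0.088 and 0.086 for Tbx5, 0.032 and 0.030 for Meis1, -0.20 and -0.20 for Meis2, 0.062 and 0.060 for Myocd, 0.023 and 0.021 for Casz1, -0.049 and -0.051 for Irx2, -0.090 and -0.091 for Irx3, -0.084 and -0.086 for Irx5, -0.040 and -0.042 for Hey2, -0.67 and -0.67 for Msx2 and -0.72 and -0.72 for Prrx1. Mef2c was -0.0051 with total counts, and Srf -0.0056 with length offsets. Without 1 library, over both tools, the range was -0.26 to 0.033 for Tbx5, -4.63e-05 to 0.074 for Hopx, -0.082 to 0.0077 for Meis1, -0.14 to 0.19 for Mef2c, -0.022 to 0.084 for Srf, -0.012 to 0.16 for Hey2, -0.41 to 0.24 for Hand1, -0.16 to 0.049 for Prdm16, -0.43 to 0.0076 for Hey1 and -0.15 to 0.31 for Msx2.

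FlncgKO replicates 2 and 3 differed from all controls in their Y-linked RNA, and sex and genotype cannot be told apart in these 2 libraries. The signs and adjusted p from the Y-linked covariate fits thus lean on FlncgKO replicate 1. On simulated data edgeR recovered 28% of log2 changes of 0.5, and most differences given here were smaller. With all libraries it also did not call Flnc, the deleted gene, at a log2 fold change of -2.21. The lack of a call by edgeR therefore does not show that a gene was equal.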
